A study of Mus musculus with 2 samples.

Results

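Fibroblast growth factors (FGFs) and their receptors were followed through the skin of the AD model by single-cell RNA-seq. The members were 8 genes taken by symbol, namely the ligands Fgf2, Fgf7, Fgf10, Fgf18 and Fgf23 and the receptors Fgfr1, Fgfr2 and Fgfr3, of 33904 genes in the matrices, and all 8 were found in both libraries. FGFR2 is also one of the kinases that the study names as inhibited by its topical JAK inhibitor, but samples that received it are outside the 2 libraries used. The Ctrl library came from dorsal skin of female C57BL/6J mice aged 7 weeks, to which 100% ethanol was applied daily on an area of 2 cm by 2 cm. In the AD library, mice of the same sex, strain and age received MC903, a vitamin D analogue also called calcipotriol, at 4.5 nmol per application in ethanol. In both groups dorsal hair was removed with depilatory cream 24 h before the first application, and skin was taken on day 10. The labels do not give the number of mice behind a library. With 1 library per condition there was no replicate and no test, and every 95% interval below covers counting error only (exact Poisson for levels, exact Clopper-Pearson for shares, exact conditional binomial for ratios).

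Most FGFs are secreted proteins that bind receptor tyrosine kinases together with heparan sulfate. The receptors signal through the Ras and ERK pathway, whose Sprouty, Spred and Dusp genes act as feedback inhibitors. In skin, fibroblasts and the dermal cells of the hair follicle make FGF7 and FGF10, which act on the epithelial form of FGFR2 in keratinocytes (KCs). FGF18 is known from the hair cycle, FGF2 from wound repair, and FGF23 is a hormone of bone that lowers blood phosphate and active vitamin D. The IIIb and IIIc splice forms, which decide the ligands a receptor binds, cannot be told apart in 3′ counts.

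The library totals were 125184653 UMIs (distinct transcript molecules) in Ctrl and 76106062 UMIs in AD. After the cell filter of the study, 11399 Ctrl cells with a median of 7813 UMIs and 8179 AD cells with a median of 6330 UMIs remained, and 29 cell barcodes occurred in both. Clusters were named again from marker genes, so names can differ from those of the study. Dermal fibroblast-like cells (dFBs) numbered 5974 in Ctrl and 5474 in AD, and KC-like cells (KCs) numbered 1859 and 407, or 16.3% and 4.98% of the cells. All 6 dFB markers were detected in dFBs of both libraries, but their summed level was 50249 CPM in Ctrl and 11903 CPM in AD. T cell-like cells, which served as background for RNA from other cells, held 6824 CPM of the same markers in Ctrl and 1482 CPM in AD. Levels are counts per 1000000 UMIs (CPM), that is, the UMIs of a gene over all UMIs of the class, and were compared within a gene only, since 3′ counts do not give levels per length. A member was read as changed between the libraries when it had at least 10 CPM in either and a ratio of at least 2-fold with 1 CPM added.

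The genes lie on different chromosomes of GRCm38. In GENCODE release M21, Fgf23 (ENSMUSG00000000182) spans chr6:127072902-127081408, Fgf7 (ENSMUSG00000027208) chr2:126034658-126091185 and Fgf10 (ENSMUSG00000021732) chr13:118669791-118792115, all on the + strand. Fgfr2 (ENSMUSG00000030849) spans chr7:130162451-133123350 on the − strand, and Fgfr1 (ENSMUSG00000031565) chr8:25513654-25575718 on the + strand. Fgf2 (ENSMUSG00000037225) spans chr3:37348346-37410108 and Fgfr3 (ENSMUSG00000054252) chr5:33721674-33737068 on the + strand, and Fgf18 (ENSMUSG00000057967) chr11:33117430-33147400 on the − strand. All 8 are protein-coding genes. The 250 bases before the RefSeq start (GRCm38.p6) are shown for Fgf23, the member with the largest rise in AD dFBs, at chr6:127072652-127072901, for Fgf7, the main epithelial growth factor among the members, at chr2:126034408-126034657, and for Fgfr2, the receptor of Fgf7 in epithelium, at chr7:130266809-130267058. Because MC903 is a ligand of the vitamin D receptor, the forms AGGTCA and AGTTCA of its 6-base recognition motif were searched on both strands. Capitals mark each match.

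Fgf23: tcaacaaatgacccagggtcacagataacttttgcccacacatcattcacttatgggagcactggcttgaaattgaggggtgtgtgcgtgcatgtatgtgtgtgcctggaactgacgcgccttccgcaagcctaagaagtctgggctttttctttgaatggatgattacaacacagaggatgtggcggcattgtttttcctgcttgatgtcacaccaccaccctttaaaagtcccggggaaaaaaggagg
Fgf7: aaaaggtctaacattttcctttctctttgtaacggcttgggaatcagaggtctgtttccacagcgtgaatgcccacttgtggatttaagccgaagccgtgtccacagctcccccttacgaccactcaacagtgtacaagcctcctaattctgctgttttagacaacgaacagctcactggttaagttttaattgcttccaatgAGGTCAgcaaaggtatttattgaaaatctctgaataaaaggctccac
Fgfr2: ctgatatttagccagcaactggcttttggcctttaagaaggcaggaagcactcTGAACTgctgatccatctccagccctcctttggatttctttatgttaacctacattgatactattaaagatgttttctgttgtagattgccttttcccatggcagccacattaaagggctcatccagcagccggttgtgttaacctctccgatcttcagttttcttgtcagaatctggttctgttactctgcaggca

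Neither of these forms lay in the window of Fgf23, and other forms of the motif were not searched. That of Fgf7 held AGGTCA on the + strand, starting 47 bases before the start, and that of Fgfr2 held AGTTCA on the opposite strand of the gene, 197 bases before the start. Among the other members with a window, Fgf2 held 1 match of AGTTCA, whereas Fgf10, Fgf18 and both windows of Fgfr3 held none. Over all 32851 windows of this length, 14.0% held AGGTCA, 11.8% held AGTTCA and 24.2% held either, so a match was common. The direct repeat, with either motif on each side of 3 free bases, was in 4 windows, and none belonged to a member. A match is a run of letters and does not show binding. Fgfr1 had no window.

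Most UMIs of the 5 ligands lay in dFBs, and those of the receptors were spread more widely. As 52.4% of Ctrl and 66.9% of AD cells, dFBs held 94.0% of the Fgf7 UMIs in Ctrl (93.4 to 94.4) and 94.7% in AD (93.9 to 95.5). For Fgf10, the dFB part was 94.5% in Ctrl and 90.8% in AD. It was 83.0% and 86.1% for Fgf2, 89.1% and 82.5% for Fgf18, and 93.9% for Fgf23 in AD. Fgfr1 followed the ligands, with 81.5% of its UMIs in dFBs in Ctrl and 85.6% in AD. Fgfr2 was divided between dermis and epithelium, since dFBs held 51.1% of its UMIs in Ctrl and 56.0% in AD, and KCs held 30.4% and 23.6%. In Ctrl a further 10.9% of the Fgfr2 UMIs lay in hair follicle matrix-like cells, and in AD 15.0% lay in adipocyte-like cells, which were 2.18% of the AD cells. Fgfr3 was mostly epithelial, with 64.9% of its UMIs in KCs in Ctrl and 51.1% in AD.

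**Figure D1:**
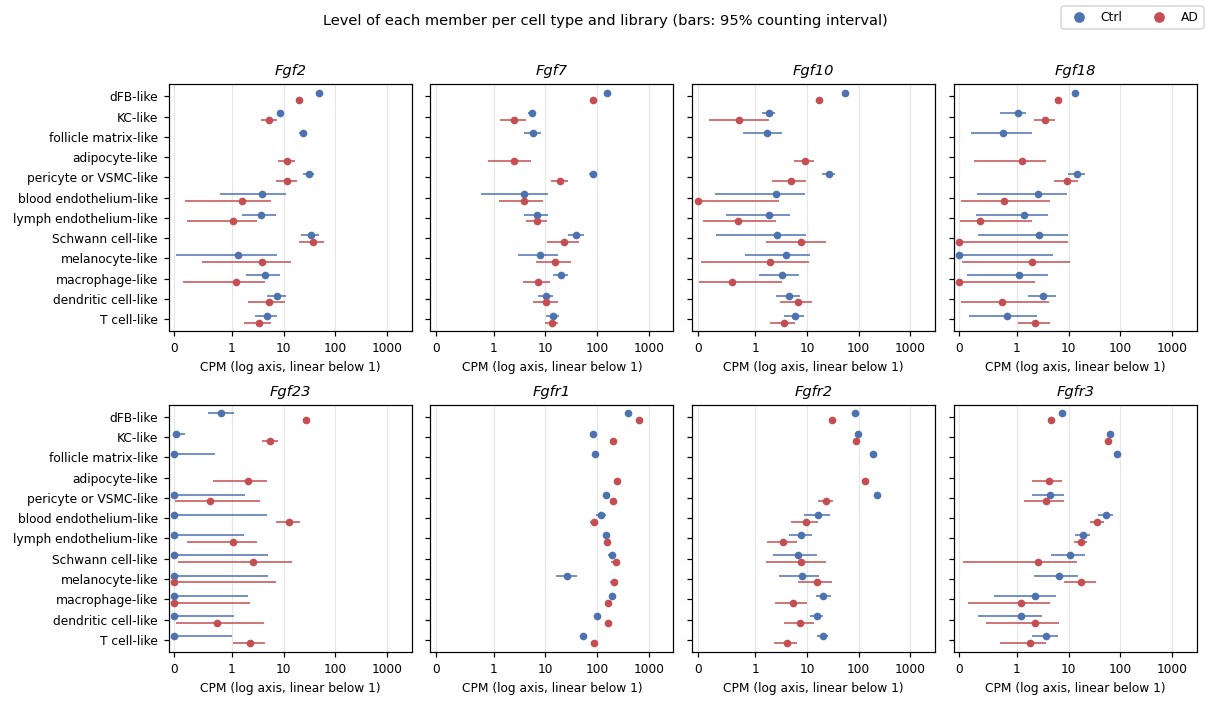
Level of each member in CPM (log axis, linear below 1) per cell type-like class in Ctrl (blue) and AD (red), with 95% counting intervals; a class with under 20 cells in a library has no point. Fgf7 and Fgf10 were highest in Ctrl dFBs, Fgfr1 had UMIs in every class shown, and Fgfr3 was highest in follicle matrix-like cells, KCs and blood endothelial-like cells.

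In dFBs, the epithelial growth factor Fgf10 and the receptor Fgfr2 were lower in AD, Fgf23 was higher, and Fgfr1 was higher by less than 2-fold. Of the 8 members, 7 had at least 10 CPM in either library, and 3 of them (Fgf2, Fgf10 and Fgfr2) were at least 2-fold lower, as were 13.4% of all 9204 genes at that level. Fgf23 was at least 2-fold higher, as were 7.02% of all genes. Fgf7, Fgf18 and Fgfr1 stayed within 2-fold. Over all genes the median log2 ratio was −0.09.

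Fgf7 reached 154 CPM (151 to 158) from 8467 UMIs in the dFBs of Ctrl. From 3308 UMIs, those of AD reached 85.0 CPM (82.2 to 88.0). The difference was −0.86 on the log2 scale (−0.92 to −0.80), taken as AD over Ctrl here and below. The dFBs with any UMI made up 55.9% and 30.1%, against 3.26% and 4.51% of T cell-like cells, and after thinning each cell to 1000 UMIs the dFB shares were 13.1% and 6.46%. When the follicle mesenchyme-like, dermal sheath-like and peri-follicular-like subsets described below were left out, the ratio was −0.50, and with cells gated one by one it was −0.27. In the 2 clusters that held at least 20 cells of both libraries, the Fgf7 ratio was below 0 in each, at −0.32 (−1.25 to 0.81, which includes 0) in cluster 2 (20 Ctrl cells, 1335 AD cells) and −1.85 (−2.84 to −0.90) in cluster 24 (77 and 110 cells). Pooled, the 2 clusters gave 0.21, as most of their Ctrl cells lay in cluster 24 and most of their AD cells in cluster 2.

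Fgf10, the other ligand of epithelial FGFR2, was lower, with 3002 UMIs or 54.7 CPM (52.8 to 56.7) in Ctrl dFBs against 650 UMIs or 16.7 CPM (15.4 to 18.0) in those of AD, a log2 ratio of −1.71 (−1.84 to −1.59). A UMI was found in 26.0% and 8.24% of dFBs, and in 1.47% and 0.966% of T cell-like cells. In Ctrl, 31.4% of the dFBs with an Fgf7 UMI also had one of Fgf10 (29.8 to 33.0), against 19.3% of those without (17.8 to 20.8). The same shares in AD were 12.8% and 6.28%. Cells with an Fgf7 UMI were deeper, with medians of 9350.5 against 7226.5 UMIs in Ctrl and 8286.5 against 5821.5 UMIs in AD, and the part of depth in this was not tested.

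Fgf2, a broad growth factor without a classical signal peptide, was at 47.3 CPM in Ctrl (2593 UMIs) and 19.9 CPM in AD (776 UMIs), a log2 ratio of −1.24 (−1.36 to −1.13). Fgf18 was at 13.2 CPM (724 UMIs) and 6.30 CPM (245 UMIs), a log2 ratio of −1.07 (−1.28 to −0.86), which fell inside the 2-fold limit once 1 CPM was added. Both ligands were lower in AD dFBs as a whole. In the same shared clusters Fgf18 had 1 Ctrl UMI in all, too few for a direction.

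Fgf23 was the exception among the ligands. Ctrl dFBs held 44 UMIs, or 0.802 CPM (0.583 to 1.08), and AD dFBs held 1037 UMIs, or 26.7 CPM (25.1 to 28.3), a log2 ratio of 5.05 (4.62 to 5.52). The UMIs lay in few cells, since 269 AD dFBs (4.91%, 4.36 to 5.52) and 28 Ctrl dFBs (0.469%) had any. The T cell-like background was 0.966% in AD and 0 of 950 cells in Ctrl. Among the 269 AD cells, 128 had a single UMI, the highest had 44, and the 27 cells with most UMIs held 46.2% of the total. These cells had a median of 10924 UMIs against 6344 UMIs in the other AD dFBs. An Fgf7 UMI was present in 52.8% of them (46.6 to 58.9) and in 29.0% of the others (27.7 to 30.2).

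Among the receptors, Fgfr1 was higher in AD dFBs, with 25103 UMIs or 645 CPM (637 to 653) against 21669 UMIs or 395 CPM (389.8 to 400.4), a log2 ratio of 0.71 (0.68 to 0.73) that stayed within 2-fold. It was 0.34 with dFBs named by the fold rule alone, and past 2-fold at 1.02 without the 3 follicle-associated subsets and at 1.34 in the pooled shared clusters. The shares of dFBs with a UMI were 79.5% and 88.9%, or 29.7% and 46.8% after thinning. T cell-like cells had shares of 8.63% and 19.97%, so Fgfr1 was higher in that class too, at 53.7 and 87.1 CPM.

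Fgfr2 moved the other way, with 4677 UMIs or 85.3 CPM (82.8 to 87.7) in Ctrl dFBs and 1205 UMIs or 31.0 CPM (29.2 to 32.8) in AD dFBs, a log2 ratio of −1.46 (−1.55 to −1.37). The share of dFBs with a UMI was 39.1% (37.9 to 40.4) and 13.4% (12.5 to 14.4), or 7.54% and 2.56% after thinning. The T cell-like background was lower as well, from 20.03 CPM (4.42% of cells) to 4.03 CPM (2.09%). Fgfr3 was low in dFBs, at 7.47 CPM and 4.55 CPM, below the level set for a change.

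**Figure D2:**
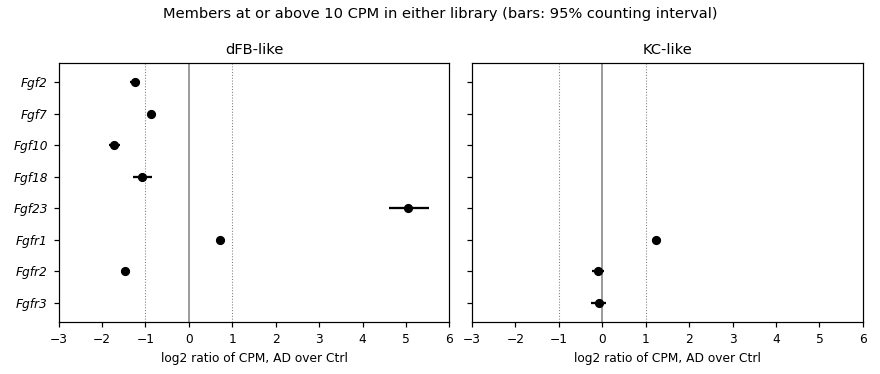
Log2 ratio of CPM, AD over Ctrl, of each member with at least 10 CPM in either library, in dFBs (left) and KCs (right), with 95% counting intervals. Dotted lines mark 2-fold. In dFBs Fgf23 lies at 5.05 and Fgf10 at −1.71, and in KCs Fgfr1 lies at 1.24 with Fgfr2 and Fgfr3 near 0.

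HI-AP, RET/PAP, Areg and peri-follicular are subset names of the study, used here with further markers added. Follicle mesenchyme and dermal sheath are not among its subsets and were added here with their own markers. The dFB subsets held the members in different proportions, and they hardly shared clusters between the libraries. Of the 11 dFB clusters, 2 had at least 20 cells in both libraries, with 1.62% of the Ctrl dFBs and 26.4% of the AD dFBs. Ratios within a subset therefore compare different sub-clusters that carry the same name.

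The follicle mesenchyme-like subset (542 cells, sub-cluster 9) was found in Ctrl alone and carried the highest levels of the epithelial growth factors among the subsets. Fgf7 stood there at 625 CPM (601 to 649) and Fgf10 at 266 CPM (251 to 282). Fgfr1 stood at 1631 CPM and Fgfr2 at 234 CPM, each also the highest of any dFB subset in either library. This subset made up 9.07% of the Ctrl dFBs and held 31.5% of their Fgf7 UMIs, 37.9% of their Fgf10 UMIs and 32.2% of their Fgfr1 UMIs. Dermal sheath-like cells, 1124 in Ctrl and 7 in AD, had Fgf10 at 55.8 CPM, Fgfr2 at 99.4 CPM and Fgfr3 at 14.7 CPM.

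HI-AP-like dFBs were named after the hypodermal interstitium adipocyte progenitors and shared the markers Col14a1 and Dpp4 between the libraries. Mfap5, Pi16 and Sema3c counted in the Ctrl sub-clusters of this name but in neither of the AD ones. HI-AP-like cells numbered 2559 in Ctrl (sub-clusters 0, 6 and 10) and 1976 in AD (sub-clusters 3 and 4). Here 5 of the 6 members with at least 10 CPM were at least 2-fold lower in AD (Fgf2, Fgf7, Fgf10, Fgf18 and Fgfr2), against 15.2% of all genes, and Fgfr1 was at least 2-fold higher, against 10.1%. Of Fgfr2 there were 1196 UMIs in Ctrl, or 46.9 CPM (44.3 to 49.6), and 28 UMIs in AD, or 2.11 CPM (1.40 to 3.05), a log2 ratio of −4.47 (−5.07 to −3.93). The AD level lay below the 4.03 CPM of AD T cell-like cells and is thus not distinguished from background. Within Ctrl the receptor was uneven, at 134 CPM in sub-cluster 6 and at 5.33 and 10.4 CPM in sub-clusters 0 and 10, and the AD cells came from other sub-clusters.

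Fgf10 in the same subset was at 30.5 and 3.77 CPM, the latter of which is close to the 3.52 CPM of AD T cell-like cells. Fgf18, which was highest in Ctrl HI-AP-like cells among the Ctrl subsets, was at a log2 ratio of −2.56, at 24.5 CPM (22.7 to 26.5) and 4.15 CPM (3.13 to 5.40). In Ctrl its UMIs were concentrated in sub-clusters 10 and 0, at 37.5 and 34.0 CPM, and HI-AP-like cells held 86.5% of all Fgf18 UMIs of dFBs. Fgf7 was at 121 and 56.9 CPM, Fgf2 at 61.4 and 26.9 CPM, and Fgfr1 at 330 and 702 CPM.

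RET/PAP-like dFBs, named after the reticular or papillary cells and sharing the markers Grem1 and Cyp26b1, numbered 1341 in Ctrl (sub-clusters 1 and 18) and 814 in AD (sub-cluster 5). Of the other markers, Cyp4b1 counted in both Ctrl sub-clusters but not in AD sub-cluster 5. Lrig1 counted in AD sub-cluster 5 and in Ctrl sub-cluster 18 (83 cells), but not in Ctrl sub-cluster 1. Fgf7 was at 141 CPM in both libraries, a log2 ratio of 0.00 (−0.11 to 0.11), and Fgf10 was at 25.6 and 27.9 CPM, a ratio of 0.12 (−0.13 to 0.38). Both intervals include 0 here, unlike those over all dFBs, and RET/PAP-like cells held 40.3% of the Fgf7 UMIs and 57.8% of the Fgfr2 UMIs of AD dFBs. Fgfr2 was at 108 and 73.9 CPM, a ratio of −0.54 (−0.68 to −0.41), with UMIs in 49.9% and 46.6% of cells. In this subset 2 of 6 members with at least 10 CPM were at least 2-fold higher, Fgf23 and Fgfr1, against 10.3% of all genes, and Fgf2 was at least 2-fold lower, against 11.4%. Fgf23 had 1 UMI in Ctrl and 414 UMIs in AD, or 43.9 CPM (39.8 to 48.3), in 10.3% of the cells. Fgfr1 went from 159 to 479 CPM, a ratio of 1.59 (1.51 to 1.68).

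Areg-like dFBs, named for adipogenesis-regulatory cells, shared the markers Fmo2, Mgp and F3. Gdf10, Apoe and Clec11a counted in sub-cluster 8 but not in sub-cluster 2, which held 1122 of the AD cells. Areg-like cells numbered 144 in Ctrl (sub-cluster 8) and 1527 in AD (sub-clusters 2 and 8). They had the highest Fgf23 level of the dFB subsets, 50.6 CPM in AD (46.5 to 54.9), with UMIs in 10.7% of the cells, and held 55.7% of the Fgf23 UMIs of AD dFBs, while RET/PAP-like cells held a further 39.9%. Within sub-cluster 8, which held 143 Ctrl cells and 405 AD cells, Fgf23 went from 1.14 CPM (a single UMI) to 31.9 CPM, a log2 ratio of 4.80 (2.29 to 10.1). In the same sub-cluster Fgf10 fell from 56.0 to 11.4 CPM, a ratio of −2.29 (−3.01 to −1.60), and Fgfr1 was at 248 and 444 CPM. Over the whole subset 2 of 7 members at 10 CPM were at least 2-fold higher and 1 was at least 2-fold lower, against 10% and 12.4% of all genes. Areg-like cells held 69.8% of the Fgf18 UMIs of AD dFBs, at 15.0 CPM against 12.5 CPM in Ctrl. Their Fgfr2 level was low in both libraries, at 9.13 and 10.3 CPM.

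Peri-follicular-like dFBs numbered 85 in Ctrl (sub-cluster 15) and 832 in AD (sub-clusters 7 and 15). Fgfr1 stood at 194 CPM (156 to 238) in Ctrl against 1154 CPM (1122 to 1187), a log2 ratio of 2.57 (2.28 to 2.89), the sole member past 2-fold there, while 14% of all genes were higher and 19.4% lower past that limit. Most of this lay in sub-cluster 7, with 703 AD cells at 1462 CPM, and within sub-cluster 15 the level went from 190.3 to 301 CPM, a ratio of 0.66 (0.32 to 1.01). Fgfr2 was at 84.4 and 82.7 CPM over the subset, but within sub-cluster 15 it fell from 84.6 to 19.0 CPM, a ratio of −2.16 (−2.99 to −1.36). Fgf7 in sub-cluster 15 fell from 46.5 to 13.5 CPM, a ratio of −1.78 (−2.83 to −0.77). The AD level is close to the 13.3 CPM of AD T cell-like cells and is thus not distinguished from background. Fgfr3 was at 21.1 CPM in both libraries, near the 23.6 CPM of Ctrl follicle mesenchyme-like cells.

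**Figure D3:**
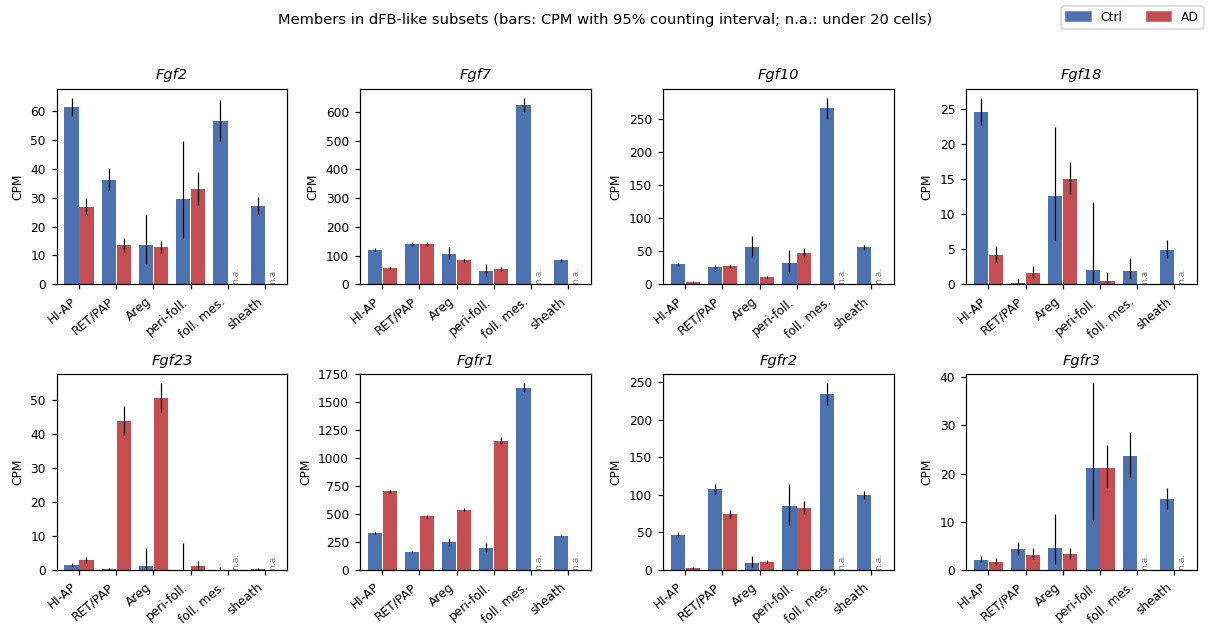
Level of each member in CPM in 6 dFB-like subsets of Ctrl (blue) and AD (red), with 95% counting intervals; n.a. marks under 20 cells. Fgf7, Fgf10, Fgfr1 and Fgfr2 peak in the follicle mesenchyme-like cells of Ctrl, and Fgf23 stands out in AD RET/PAP-like cells (43.9 CPM) and Areg-like cells (50.6 CPM).

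Over all KCs, Fgfr1 was higher in AD, whereas Fgfr2 and Fgfr3 were close to Ctrl. Of the 3 members with at least 10 CPM, 1 was at least 2-fold higher, against 5.39% of 9275 genes, and none was at least 2-fold lower, against 11.9%. Fgfr1 had 2442 UMIs in Ctrl, or 84.3 CPM (81.0 to 87.7), and 1124 UMIs in AD, or 199.6 CPM (188 to 212). The log2 ratio was 1.24 (1.14 to 1.35), and the shares of cells were 48.8% and 71.3%. The libraries held unlike mixes of KCs. Ctrl KCs included 303 suprabasal-like cells with Fgfr1 at 11.4 CPM and 176 sebaceous-like cells at 27.5 CPM. Both subsets had under 20 cells in AD, and the part of this mix in the ratio was not tested. Within basal-like KCs, described below, Fgfr1 was lower in AD, at a ratio of −0.30. The 6 dFB markers summed in KCs to 2088 CPM in Ctrl and 338 CPM in AD. Their sum was lower in AD dFBs too, as given above, and the part of dFB RNA in the KC values was not tested. KC sub-clusters 7 and 16, left unnamed, were led by fibroblast genes and had Pdgfra in 87.0% and 72.7% of their cells, and their part in the result was not tested. With all deposited barcodes the Fgfr1 ratio was 0.70 and no member passed 2-fold.

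Fgfr2, the receptor of FGF7 and FGF10 in epithelium, had 2781 UMIs in Ctrl KCs, or 96.03 CPM (92.5 to 99.7), and 507 UMIs in AD KCs, or 90.0 CPM (82.4 to 98.2), with UMIs in 57.1% and 54.8% of cells. Its log2 ratio was −0.09 (−0.23 to 0.04), and other settings gave values from −0.28 to 0.22. Fgfr3, a receptor of differentiating epidermis, was at 62.3 CPM (1805 UMIs) and 58.8 CPM (331 UMIs), a ratio of −0.08 (−0.26 to 0.08). Over all cells of a library, Fgfr3 was nevertheless lower in AD, at 10.5 CPM against 26.5 CPM, and KCs and follicle matrix-like cells, which held most of its UMIs in Ctrl, were a smaller part of the AD cells.

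The KC subsets split these receptors. KCs in unnamed sub-clusters (542 in Ctrl, 64 in AD) had the highest Fgfr1 ratio of the KC groups, 2.27 (2.06 to 2.48), at 109 and 525 CPM, and held 233 of the 1124 Fgfr1 UMIs of AD KCs. The ratio compares largely different cells. Sub-cluster 1, with Krt25 and Krt71 among its leading genes, held 242 of the Ctrl cells and 0 AD cells. Sub-cluster 15, with a median of 785 UMIs, held 41 of the AD cells and 0 Ctrl cells. The unnamed cells also include the fibroblast-led sub-clusters 7 (99 in Ctrl, 16 in AD) and 16 (33 and 0). Their median depth was 15565 UMIs in Ctrl and 1454 UMIs in AD. Fgfr2 there was at 133 and 87.9 CPM, a ratio of −0.59 (−1.09 to −0.13), and Fgfr3 at 80.1 and 40.6 CPM, a ratio of −0.98 (−1.75 to −0.31). In basal-like KCs, 162 in Ctrl (mostly sub-cluster 5) and 151 in AD (mostly sub-cluster 6, led by Cyp24a1, the enzyme that degrades active vitamin D, and Tslp), Fgfr2 stood at 120.2 CPM (106 to 136) against 41.7 CPM (34.8 to 49.5) in AD, a log2 ratio of −1.53 (−1.84 to −1.22). Fgfr3 stood at 43.4 CPM (35.1 to 53.1) against 14.3 CPM (10.4 to 19.2), a ratio of −1.60 (−2.15 to −1.07). Both were past 2-fold, as were 12.2% of all genes in that direction (5.69% in the other), and Fgfr1 was at 83.2 and 67.8 CPM, a ratio of −0.30. The AD basal-like cells were deeper, with a median of 22141 UMIs against 12206 UMIs.

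Outer root sheath and bulge-like KCs, 676 in Ctrl (sub-clusters 0, 2, 8 and 12) and 183 in AD (sub-cluster 3), went the other way. Fgfr1 stood at 133.5 CPM (126 to 141) against 363 CPM (336 to 391) in AD, a log2 ratio of 1.44 (1.30 to 1.58), against 9.67% of all genes past 2-fold upward and 16.8% downward. Fgfr2 was at 114 and 176 CPM, a ratio of 0.63 (0.44 to 0.81), and Fgfr3 at 80.2 and 145 CPM, a ratio of 0.86 (0.65 to 1.06). These ratios depend on which Ctrl cells carry the name. The name of sub-cluster 8 is uncertain, since Krt35, Krt28, Shh and Lef1, known from the hair matrix and inner root sheath, stood with Krt75 among its leading genes, and its 114 Ctrl cells had Fgfr1 at 77.3 CPM, Fgfr2 at 182 CPM and Fgfr3 at 92.2 CPM. Sub-cluster 0, the Ctrl sub-cluster with most cells, was at 279.7 CPM for Fgfr1, 164 CPM for Fgfr2 and 92.7 CPM for Fgfr3, against 373, 182 and 146 CPM in sub-cluster 3 of AD. In Ctrl sub-cluster 2 the Fgfr1 level was 19.5 CPM.

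Suprabasal-like and sebaceous-like KCs had enough cells in Ctrl alone. Suprabasal-like cells (303, some of them in a sub-cluster led by the immune genes Il1b and Cd74) had Fgfr3 at 48.8 CPM, Fgfr2 at 30.9 CPM and Fgfr1 at 11.4 CPM, the last being the lowest of the 4 named KC subsets of Ctrl. Sebaceous-like cells (176) had Fgfr2 at 61.0 CPM but Fgfr3 at 3.28 CPM, near the 3.62 CPM of T cell-like cells. Ligand UMIs were few in KCs of both libraries. Of the 31 Fgf23 UMIs in AD KCs, 26 lay in 1 cell, and of the 20 Fgf18 UMIs 14 lay in 1 cell.

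**Figure D4:**
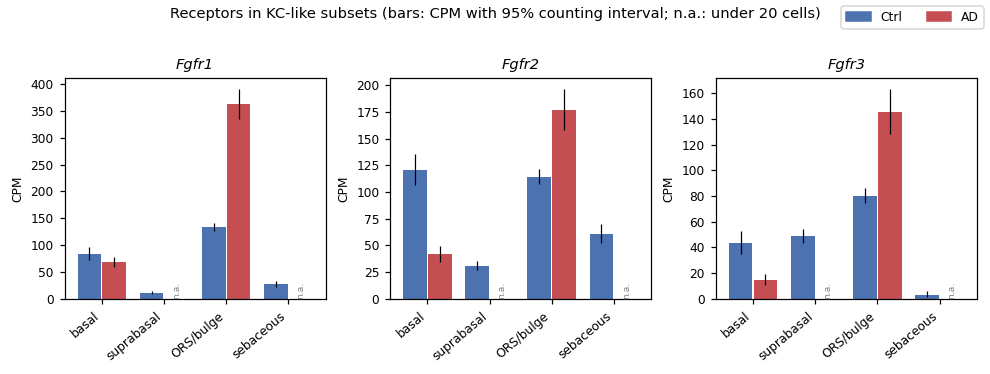
Level of the 3 receptors in CPM in KC-like subsets of Ctrl (blue) and AD (red), with 95% counting intervals; n.a. marks under 20 cells. Fgfr2 and Fgfr3 are lower in AD among basal-like cells (41.7 against 120.2 CPM and 14.3 against 43.4 CPM) and higher in AD among outer root sheath and bulge-like cells.

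Several smaller classes carried a receptor at a high level. Hair follicle matrix-like cells (400 in Ctrl, 2 in AD) had Fgfr2 at 189.7 CPM (178 to 202), Fgfr3 at 84.2 CPM and Fgf2 at 23.5 CPM. Adipocyte-like cells (178 in AD, 3 in Ctrl) had Fgfr2 at 133 CPM (119 to 148) and Fgfr1 at 241 CPM. Neither class could be compared between the libraries.

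In the pericyte or vascular smooth muscle-like class, 4 of 6 members with at least 10 CPM were at least 2-fold lower in AD (Fgf2, Fgf7, Fgf10 and Fgfr2) and none was higher, against 11.9% and 6.43% of all genes. Fgfr2 stood there at 227 CPM (207 to 249) against 23.5 CPM (16.6 to 32.2), but the class held unlike clusters. Cluster 31, led by the muscle genes Des, Myh11 and Mylk, had 60 Ctrl cells with Fgfr2 at 593 CPM (539 to 650), Fgf7 at 176 CPM and Fgf10 at 69.0 CPM, and 8 AD cells. In cluster 18, with 241 Ctrl cells and 188 AD cells, Fgfr2 was at 13.7 and 5.94 CPM, near the 20.03 and 4.03 CPM of the T cell-like cells, and Fgf7 was at 26.7 and 7.93 CPM, with −1.75 on the log2 scale (−2.83 to −0.77). The Fgf7 level of AD lay below the 13.3 CPM of AD T cell-like cells and is not distinguished from background. Of the 473 Fgfr2 UMIs of the class in Ctrl, 455 lay in cluster 31.

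Fgfr3 marked endothelium at a lower level, at 52.0 CPM in the blood endothelial-like cells of Ctrl against 36.0 CPM, a ratio of −0.53 (−1.17 to 0.11), and at 18.8 and 17.2 CPM in lymphatic endothelial-like cells. Fgf23 had 16 UMIs in 10 of 114 AD blood endothelial-like cells, or 12.5 CPM (7.16 to 20.3), and 0 UMIs in Ctrl, which allows up to 3.804 CPM. It was the 1 member of 4 past 2-fold there, with 5.26% of all genes higher and 13.7% lower. An unnamed cluster led by Erfe, Pax7 and Nppc, with 62 Ctrl cells and 75 AD cells, had Fgfr1 at 495 CPM (414 to 588) and 1483 CPM (1332 to 1645), a log2 ratio of 1.58 (1.29 to 1.88). Melanocyte-like cells had Fgfr1 at 26.5 and 212 CPM, a ratio of 3.00 (2.31 to 3.77), in a class where 19.4% of all genes were at least 2-fold higher and 18.6% lower. Of 4 members at 10 CPM there, 2 were at least 2-fold higher, the other being Fgfr3 with 5 and 9 UMIs and a ratio of 1.40 (−0.33 to 3.33). There the dFB markers summed to 1013 CPM in Ctrl and 1602 CPM in AD and the KC markers to 372 and 563 CPM, and the part of these in the result was not tested. The median depth was 7352 UMIs in Ctrl and 2926 UMIs in AD.

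In macrophage-like cells 2 of 3 members with at least 10 CPM were at least 2-fold lower, Fgf7 (20.3 against 7.13 CPM) and Fgfr2 (20.8 against 5.35 CPM), with 13.6% of all genes lower and 7.09% higher, while Fgfr1 was at 198 and 165 CPM. The T cell-like background was 13.9 and 13.3 CPM for Fgf7 and 20.03 and 4.03 CPM for Fgfr2. The macrophage-like levels of these 2 genes are thus not clearly distinguished from background. In T cell-like cells 1 of 3 was lower, Fgfr2, with 8.03% of all genes lower and 2.5% higher. In Schwann-like cells 1 of 4 counted as lower, Fgfr3 with 8 and 1 UMIs, with 16.4% of all genes lower and 8.35% higher. The interval of that ratio, −2.03 (−7.50 to 0.87), includes 0. None of 3 passed 2-fold in dendritic-like cells (9.52% lower, 8.48% higher) and none of 2 in lymphatic endothelial-like cells (8.1% lower, 3.48% higher). In mast cell-like cells (138 in Ctrl, 46 in AD) 1 of 3 counted as lower, Fgf10 with 5 and 0 UMIs, too few for a direction, and Fgfr1 was at 118 and 165 CPM, a ratio of 0.48 (−0.34 to 1.28). The share of all genes past 2-fold was not computed for this class, which had under 50 cells in AD, so its count has no background. Fgfr1 in dendritic-like cells was at 101 and 163 CPM, a ratio of 0.69 (0.44 to 0.94). The dFB markers of T cell-like cells, given above, were lower in AD too, and the part of dFB RNA in the Fgf7 and Fgfr2 values of these classes was not tested.

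Beyond the members, 78 other genes of the pathway were counted in lists chosen with earlier results of these data known. In dFBs, 12 of the 13 feedback and target genes in the matrix had at least 10 CPM, and 2 were at least 2-fold higher (7.02% of all genes), none lower (13.4%), with a median log2 ratio of 0.51 against −0.09 over all genes. The ERK feedback inhibitor Spry4 went from 12.9 to 35.3 CPM, a ratio of 1.46 (1.32 to 1.59), and the ETS factor Etv5 from 8.31 to 19.3 CPM, a ratio of 1.21 (1.04 to 1.38). Dusp6, a phosphatase of ERK, was at 27.5 and 42.7 CPM, within 2-fold. In KCs, 2 of 11 measured genes of this list were at least 2-fold higher (5.39% of all genes) and none lower (11.9%), with a median of 0.60 against −0.11. Those were Dusp4, from 16.1 to 38.5 CPM, and Etv5, from 12.9 to 27.3 CPM, while Dusp6 was at 106 and 173 CPM. Etv4, at 25.2 and 51.0 CPM, was past 2-fold only before 1 CPM was added. Other pathways also act on these genes, and no statement on FGF signalling follows from their level.

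Of the other receptors and co-receptors in dFBs, 4 of 11 were at least 2-fold lower (13.4% of all genes) and 1 was higher (7.02%). Gpc3, a heparan sulfate proteoglycan, fell from 555 to 169.9 CPM, a ratio of −1.71, Flrt2 from 304 to 134 CPM, Sdc3 from 35.0 to 5.06 CPM and the receptor Fgfr4 from 12.4 to 1.26 CPM. Sdc4, a syndecan that binds FGFs with their receptors, rose from 289.8 to 818 CPM, a ratio of 1.498 (1.47 to 1.53), and in KCs it rose from 674 to 1436 CPM. In KCs Flrt2, at 62.5 and 17.9 CPM, and Gpc3, at 25.8 and 7.99 CPM, were lower, although both were far below their dFB levels. Of 2 ligand carriers measured in KCs, Fgfbp1, which releases FGFs from matrix, fell from 223 to 91.4 CPM, a ratio of −1.28 (−1.42 to −1.15). Among the heparan sulfate enzymes 1 of 11 in dFBs (Hpse, 13.7 to 3.57 CPM) and 1 of 8 in KCs (Sulf2, 46.6 to 18.6 CPM) were at least 2-fold lower, near the 13.4% and 11.9% of all genes. Of the intracellular adaptors, 16 of 17 in dFBs and all 17 in KCs stayed within 2-fold, the exception being Map2k2 in dFBs, from 76.2 to 33.2 CPM. Among the genes of the FGF family other than the members, Fgf13, from 12.4 to 2.24 CPM, was the sole one at 10 CPM in dFBs.

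**Figure D5:**
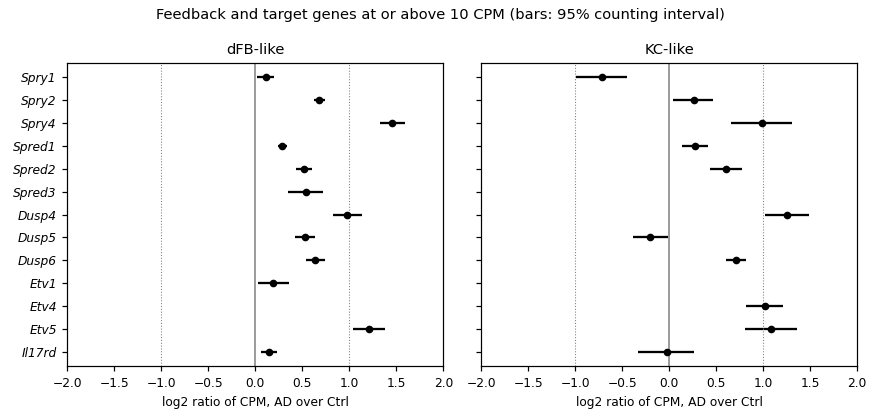
Log2 ratio of CPM, AD over Ctrl, of the feedback and target genes that reached 10 CPM in a library, in dFBs (left) and KCs (right), with 95% counting intervals and dotted lines at 2-fold. Spry4 (1.46) and Etv5 (1.21) lie highest in dFBs, and Spry1 lies at −0.71 in KCs.

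Across 10 cell type-like classes in both libraries (20 points), the genes whose levels were most like those of a member (Fgf2 and Fgf23 were not run) were taken from 4930 genes with at least 100 CPM in some point. Adam33, a metalloprotease of mesenchyme, was nearest to both Fgf7 (Pearson r 0.924) and Fgf10 (0.908), and Fgf7 was the second for Fgf10 (0.899). Chrdl1 and Ddr2 followed for Fgf7, and Osr2 for Fgf10. Nearest to Fgf18 were Shox2 (0.874), Ntrk3 and Hoxc6, and nearest to Fgfr1 were Ampd3 (0.850), Fos and Csf1. For Fgfr2 they were Igfbp2 (0.888), Palld and Hoxc8, and for Fgfr3 they were Palmd (0.917), Casz1 and Jag2. The points share libraries and differ in depth, so these values are a description.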

How the data were processed

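Dorsal skin of mice was digested and profiled with 10x 3′ chemistry, in 1 Ctrl library and 1 AD library. The authors deposited UMI counts per gene and barcode from Cell Ranger, without normalization. The matrix headers name version 5.0.0, whereas the submitters' processing notes give Cell Ranger 3.1.0, Seurat 5.0 and mm10, and the digestion enzyme is given differently in the labels and the methods. Of the identifiers in the matrices, 32475 are in GENCODE M21 and 1429 are not, so the annotation behind the counts is another version. All value columns were mapped to a library.

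The filter of the study was used (200 to 6000 genes, 10% mitochondrial UMIs or less). Clustering took both libraries at once, with no correction for library, in scanpy 1.11.5 (Leiden by leidenalg 0.10.2, 2000 variable genes without members and pathway genes, 30 components, 20 neighbours, resolution 1, seed 0). Intervals came from scipy 1.17.1 and figures from matplotlib 3.10.9 (Python 3.11.15). A cluster was named when at least 3 markers of a type were each in at least 10% of its cells and, with 10 CPM added, at least 2-fold over the lower quartile of clusters. A cluster got no name where other types had more markers than its own among the 10 leading genes, or where it was shallow with no marker of its own there. dFB clusters needed, in place of the fold, Pdgfra in at least 50% of their cells, a rule chosen after the data had been seen because the fold left AD clusters unnamed. dFBs and KCs were clustered again for subsets. Doublets were kept in the main values.

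UMIs were summed per class and library and given as CPM. Fold calls used 1 CPM added and at least 10 CPM in either library. Classes with under 20 cells in a library gave no value. Intervals are at 95%, a count of 0 is given with the level that 3 counts allow, and PCR, capture and animal differences are outside them. The ratio was tested on simulated data with 200 changed genes, of which 198 of 200 in dFBs (8652 genes run) and 184 of 200 in KCs (8821 genes run) were within 0.25 of the true log2 ratio. The largest error among them was 0.34 in dFBs and 0.985 in KCs. Class sums were drawn with counting error alone, so this checks the computation only. Spread over cells, subset mix, background RNA and animal differences were not simulated. All 8 members are described, other pathway genes by list with those past 2-fold named, and the 3 genes most like a member. Other feedback genes within 2-fold were named after their values were seen. The members and lists were chosen with earlier results of these data known.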

Additional observations from a re-analysis of the deposited data

Results flagged for a closer look

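The receptors moved in opposite directions in 2 KC subsets. In basal-like KCs AD stood against Ctrl on the log2 scale at −0.30 for Fgfr1, −1.53 for Fgfr2 and −1.60 for Fgfr3, while in outer root sheath and bulge-like KCs the values were 1.44, 0.63 and 0.86. The counting intervals left out 0 in each case, although that of Fgfr1 in basal-like KCs only just did, and the difference between the subsets was not tested, since each condition is 1 library. The Ctrl and AD cells of both subsets lay mostly in different sub-clusters. The outer root sheath and bulge ratios depend on which Ctrl cells carry the name, as stated above. In Ctrl sub-cluster 0 each receptor lay nearer to its AD level than in the whole Ctrl subset, and the name of sub-cluster 8 is uncertain. Median depth was 12206 UMIs in Ctrl and 22141 UMIs in AD for basal-like cells, and 12290.5 and 8012 UMIs for the others, and the part of depth was not tested.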

How the results depend on the processing

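No paired analysis was possible because each condition has 1 library, and for the same reason no replicate could be left out. Among the summary results, 33 values under other settings stayed within the counting interval or within 1.5 times the count and 17 did not. Among single members and shares of cells, 59 stayed, 62 moved and 2 reversed. This tally includes each share of cells in dFBs and KCs set against its value after thinning to 1000 UMIs. Thinning removes UMIs and so lowers shares by design, and such moves do not bear on how stable a result is. The Fgfr2 ratio in dFBs (−1.46) kept its direction throughout. It was −1.37 with median scaling, −1.65 as a mean over cells, −1.22 with all barcodes, −1.05 with cells gated one by one and −1.56 with each library clustered alone. In settings chosen after seeing the data it was −1.09 under the fold rule alone and −2.94 in clusters with at least 20 cells in both libraries. The Fgfr2 ratio in KCs (−0.09) changed sign, to 0.02 with median scaling, 0.19 as a mean over cells, 0.18 with at least 500 genes and 1000 UMIs and 0.22 in shared clusters, and was −0.28 at resolution 0.5 and −0.27 with gated cells. Members past 2-fold in dFBs (4) were 2 at a minimum of 50 CPM and 7 in shared clusters. Members past 2-fold in KCs (1) were 3 at a minimum of 1 CPM, 0 with all barcodes and 2 with gated cells. The share of all genes past 2-fold was not computed under these other settings, so their counts of members have no background to be read against. Pooled over the shared dFB clusters (97 Ctrl cells, 1445 AD cells), Fgf18 reversed to 2.97 and Fgf7 to 0.21, but Fgf18 rests on 1 Ctrl UMI there, and the Fgf7 ratio was below 0 in both clusters (−0.32 and −1.85), which the libraries fill in unlike proportions. All pooled values of these clusters carry that mix. The cause was not tested for the other settings. Among single members, the Fgfr1 ratio in dFBs ranged from 0.34 to 1.34, that of Fgf10 from −1.99 to −1.21, that of Fgf2 from −1.79 to −0.92 and that of Fgf23 from 4.72 to 5.66. The median gene moved by −0.11 in KCs, which median scaling removes. Scrublet's own threshold called 395 Ctrl doublets and 0 in AD and so had not worked, and leaving out the 5% of cells with the highest score, chosen after seeing the data, gave −1.48 and −0.14 for Fgfr2. The gate placed 5232 Ctrl cells and 2459 AD cells among dFBs.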
